A study of Mus musculus with 56 samples.

Results

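The small subunit of the cytosolic ribosome, called 40S, is built from ribosomal RNA and a fixed set of proteins. The genes of these proteins were followed in the prefrontal cortex of mice. A gene was taken as a member when its symbol was Rps followed by a number, alone or with a, x, l or a1, or was Rpsa. Pseudogenes with -ps in the symbol and the Rps6k kinases were left out. This gave 33 genes of 18088 in the table, and all 33 passed the filter on low values.

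The mice were of strain C57BL/6J and were either wild type (WT) or heterozygous (HT) for Scn2a, the gene of the neuronal sodium channel NaV1.2. In both genotypes, pups took in fluoxetine, a serotonin reuptake blocker, lithium, a mood stabiliser, or vehicle with their mothers' milk from postnatal day 3 to day 24. The treatment thus lasted 3 weeks, and the cortex was sampled on day 25. Over both sexes there were 9 libraries of WT vehicle, 9 of WT fluoxetine, 9 of WT lithium, 10 of HT vehicle, 9 of HT fluoxetine and 10 of HT lithium, 56 in all. No litter or dam is labelled, so pups of a group, or WT and HT pups of the same treatment, may share a mother. The p-values of the drug comparisons may then be too small.

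The library depth was 24.3 to 36.4 M reads with a median of 27.9 M. A value is a gene's read count divided by the library's size factor, the depth scale set by the authors. Scn2a had a value of 8554 ± 423 (SD, n = 29) in HT and 12311 ± 780 (SD, n = 27) in WT libraries, and the genotypes did not overlap. Markers of neurons, astrocytes, oligodendrocytes, microglia and endothelium were above 0 in every library. In 17 libraries the mean log2 level of 18 olfactory bulb or 18 striatal genes lay more than 1 above the genes' medians over libraries, 10 of them for olfactory and 8 for striatal genes. The lithium and fluoxetine results are therefore also given without these 17 libraries.

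The 40S subunit binds messenger RNA, scans it for the start codon and reads the codons, while the large subunit, 60S, joins amino acids. Its head and its body with the platform form separate parts of the structure, and each mature subunit carries a single copy of most of its proteins. Messenger RNAs of ribosomal proteins start with a C followed by a run of pyrimidines, the 5′ terminal oligopyrimidine or TOP motif. Through this motif the kinase mTORC1 and the RNA-binding protein LARP1 control their translation and stability. Neurons also carry ribosomes into dendrites and axons.

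The start of the transcript is shown for 8 of the genes on which the results below turn, since it is the feature that defines this class of messenger RNA. Each line covers 30 bases, 15 before the annotated start and 15 from it, 5′ to 3′, from RefSeq on GRCm38.p6. Capitals mark a run of at least 5 bases that opens with a C within 10 bases of the start and goes on with C or T only.
Rps10, chr17:27635230-27635259, minus strand: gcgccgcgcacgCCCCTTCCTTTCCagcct
Rps18, chr17:33955651-33955680, minus strand: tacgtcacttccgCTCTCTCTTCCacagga
Rps6, chr4:86857353-86857382, minus strand: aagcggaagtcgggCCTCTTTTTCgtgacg
Rps24, chr14:24490663-24490692, plus strand: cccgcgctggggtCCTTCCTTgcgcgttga
Rps27l, chr9:66946071-66946100, plus strand: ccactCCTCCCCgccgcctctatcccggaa
Rps15a, chr7:118116133-118116162, minus strand: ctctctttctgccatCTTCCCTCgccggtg
Rpsa, chr9:120127751-120127780, plus strand: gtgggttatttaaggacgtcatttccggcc
Rps4x, chrX:102189377-102189406, minus strand: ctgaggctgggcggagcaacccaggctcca
The first 6 hold such a run in this window, while Rpsa and Rps4x do not. Rps24 and Rps27l each have a further annotated start, not shown, without such a run. In Rps27l the marked run ends before the annotated start.

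RefSeq starts were found for 24 of the 33 genes, with 29 starts in all. A run of this kind, searched on the transcribed strand, was present at 15 of the 29 starts (51.7%) and at 30.7% of all 32851 starts in the table. In the window from 250 bases before to 50 bases after the start, the letters CCGGAA, the core bound by ETS factors, were found on either strand at 15 of 29 starts (51.7%, against 14.9% of all starts). The GC box GGGCGG was found at 16 of 29 (55.2%, against 35.7%) and TATAAA at 2 of 29 (6.90%, against 13.6%). These motifs can share letters with each other and with the pyrimidine run, and a match describes the sequence only. The starts are annotated ones and were not measured in these libraries. A start without a run therefore does not show that the messenger RNA lacks the TOP motif.

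Levels were compared between genes per kilobase of the principal annotated transcript. Rps15, a protein of the head, had the highest level, 9417 per kilobase, followed by Rps2 at 8126, Rps29 at 6370 and Rps14 at 6289. The median gene was Rps4x with 4093 per kilobase. Of the lowest 4, Rps20 had 457, Rps4l 416, Rps27l 259 and Rps27 156 per kilobase. For Rps20 and Rps24 the transcript used is 3706 and 4059 bases long, far more than for the other members, so their per-kilobase level rests on that choice.

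Genes of this family have many processed copies in the genome, and reads shared between copies are divided by a model. The share of 31-base words of a transcript that also occur in other annotated genes had a median of 58.4% over the 33 genes. It was 8.79% for Rps3, 90.75% for Rps18 and 96.8% for Rps10, and was highest for Rps27 (98.7%). Of the words of Rps10, 91.0% occur in the annotated gene RPS10-NUDT3. No gene that shares words with Rps10 had a row among the measured genes. How far read sharing bears on the values of Rps10 and Rps18 was not tested. All words that Rps27 shares were found in Rps27rt, a gene on chromosome 9 that stands outside the symbol rule. Across the 56 libraries the mean value of Rps27 was 53.9, with a range of 18.3 to 289, and on average 4.80% of the pair's sum was placed at Rps27 (1.5% to 25.2%). The values of Rps27 alone are therefore uncertain, and the sum of both genes is given below. Rps28 shared 74.7% of its words with the predicted gene Gm10443.

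**Figure D1:**
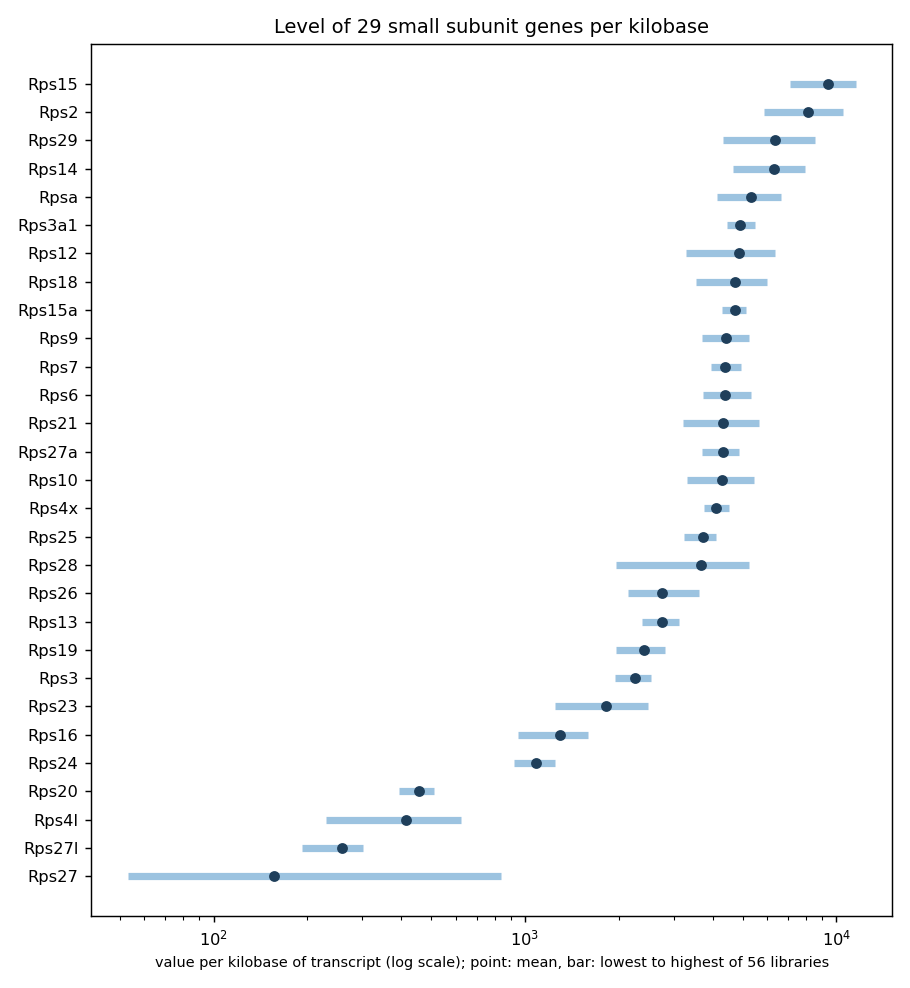
Level of 29 of the 33 small subunit genes as value per kilobase of transcript on a log axis; points are means and bars run from the lowest to the highest of 56 libraries. Rps15 stands at the top with 9417 and Rps27 at the bottom with 156, and the bar of Rps27 is the widest.

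Summed over the 33 genes, the level was lower in lithium than in vehicle libraries of both genotypes. In WT the sum was 98094 ± 6005 (SD, n = 9) under vehicle, with a lowest, median and highest library of 88662, 99881 and 106555. Under lithium it was 88289 ± 4035 (SD, n = 9), from 83881 over 87501 to 95363. In HT the sum was 100318 ± 5518 (SD, n = 10) under vehicle, from 88160 over 100655 to 110090, and 89110 ± 6612 (SD, n = 10) under lithium, from 79720 over 88874 to 100093. Lithium and vehicle libraries overlapped in both genotypes, and every lithium library lay below the vehicle median of its genotype. Under fluoxetine the sum was 95830 ± 6741 in WT and 94054 ± 5937 in HT (SD, n = 9 each). It ran from 85926 to 105272 and from 81280 to 101559, so that fluoxetine libraries spread over most of the vehicle range and reached below it. The 33 genes took 0.332% of all reads in WT vehicle, 0.294% in WT lithium, 0.336% in HT vehicle and 0.301% in HT lithium libraries.

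**Figure D2:**
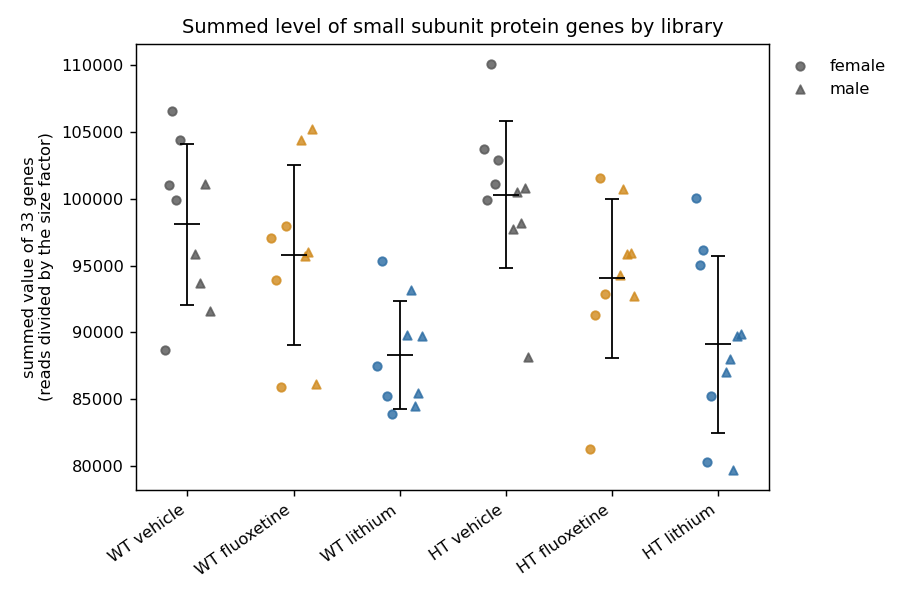
Summed value of the 33 genes in each library by genotype and treatment; circles are females, triangles males, and the black mark is the mean with its SD. The lithium means, 88289 in WT and 89110 in HT, lie below the vehicle means of 98094 and 100318, and the groups overlap.

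In WT mice, lithium lowered 15 of the 33 genes and raised none at an adjusted p below 0.05. Over all tested genes 5.71% were called in this comparison, 1.88% lower and 3.84% higher. The median log2 change of the members was -0.16, against 0.0019 over all tested genes, and 32 of the 33 had a negative change. In HT mice, lithium lowered 20 of the 33 genes and raised none, where 8.77% of all genes were called, 4.13% lower and 4.64% higher. Here the median was -0.17, against -0.00068 over all genes, and all 33 changes were negative. Members moved together from library to library, as given below, so these counts are not 33 separate observations. The WT and HT comparisons share no library, but their pups may share mothers, as no litter is labelled.

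Rps10, a protein of the head, had the smallest p in both genotypes. In WT its values ran from 2113 over a median of 2442 to 2651 under vehicle and from 1748 over 1941 to 2206 under lithium. In HT they ran from 2056 over 2347 to 2697 under vehicle and from 1647 over 1832 to 2264 under lithium. In WT only the highest lithium library reached into the vehicle range, while in HT the highest 3 did. Rps10 fell by 0.31 ± 0.057 (log2, SE) in WT, or 19.3%, with adjusted p = 0.0012, and 9 of 9 lithium libraries were below the vehicle mean of their sex. It fell by 0.32 ± 0.054 in HT, or 19.9%, with adjusted p = 0.00021, in 10 of 10 libraries.

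Among the other 13 head proteins, Rps18, which contacts the large subunit, fell by 0.28 in both genotypes (SE 0.064 and adjusted p = 0.0072 in WT, SE 0.061 and adjusted p = 0.0022 in HT). Its WT values ran from 2605 to 3347 under vehicle and from 2189 to 2774 under lithium. Rps27a, which is made as a fusion with ubiquitin, fell by 0.18 ± 0.033 in WT with adjusted p = 0.0014. Its WT values ran from 2575 over 2896 to 3098 under vehicle and from 2352 over 2555 to 2701 under lithium. In HT the change of Rps27a was -0.09 ± 0.032 with adjusted p = 0.058, and the test of the difference between genotypes gave 0.09 ± 0.046 with adjusted p = 0.48. Rps16, whose tail reaches toward the decoding site, fell by 0.31 ± 0.069 in HT with adjusted p = 0.0029. HT values of Rps16 ran from 1278 over 1585 to 1764 under vehicle and from 1055 over 1246 to 1615 under lithium. In WT its change was -0.18 ± 0.073 with adjusted p = 0.13. In all, 6 of the 14 head genes were called lower in WT with a median change of -0.17, and 8 of 14 in HT with a median of -0.15.

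Of the 17 genes of the body and platform, 8 were called lower in WT with a median of -0.13, and 11 in HT with a median of -0.18. Rps6, the substrate of the S6 kinases, fell by 0.17 ± 0.036 in HT with adjusted p = 0.0019, in 10 of 10 libraries. HT values of Rps6 ran from 3706 over 4116 to 4677 under vehicle and from 3275 over 3659 to 4063 under lithium. In WT its change was -0.08 ± 0.038 with adjusted p = 0.21. Rpsa, also known as the laminin receptor, fell by 0.23 ± 0.050 in HT with adjusted p = 0.0021, and its WT change was -0.09 ± 0.053 with adjusted p = 0.34. HT values of Rpsa ran from 8562 over 9384 to 10593 under vehicle and from 6630 over 8101 to 9097 under lithium. Rps24 fell by 0.16 ± 0.040 in WT with adjusted p = 0.011 and by 0.12 ± 0.038 in HT with adjusted p = 0.040. With each of 56 libraries left out in turn, its HT call was lost 10 times, with adjusted p up to 0.11. Of 12 other settings its HT call was lost in 4 and its WT call in 3. WT values of Rps24 ran from 4175 over 4614 to 4855 under vehicle and from 3787 over 3992 to 4432 under lithium. In each of these genes the groups overlapped at their edges.

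In all, 10 genes were called lower in both genotypes, among them Rps7, Rps9, Rps10, Rps14, Rps18, Rps20, Rps24 and Rps25. The 10 make up 66.7% of the 15 WT calls and 50% of the 20 HT calls. The overlap over all genes was not counted, so whether these shares are usual for lithium calls cannot be told. Called in WT alone were Rps19, Rps21, Rps23, Rps27a and Rps27l, and those called in HT alone included Rps2, Rps3, Rps3a1, Rps4l, Rps4x, Rps6, Rps15, Rps16 and Rpsa. A call in 1 genotype does not show a difference between genotypes: no member was called in the genotype by lithium interaction, where no gene of any kind passed (0%). The 8 genes called in neither included Rps12, Rps13, Rps15a, Rps26, Rps27, Rps28 and Rps29. Rps12 had large but variable changes, -0.24 ± 0.091 in WT with adjusted p = 0.10 and -0.24 ± 0.086 in HT with adjusted p = 0.068.

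Rps15a, which lies on the body, had the change nearest to 0 of the 33 genes in both genotypes. Its values in WT ran from 2890 over 3017 to 3159 under vehicle and from 2856 over 2958 to 3153 under lithium. Its log2 change was -0.02 (95% interval -0.07 to 0.03, adjusted p = 0.68) in WT and -0.0049 (95% interval -0.05 to 0.04, adjusted p = 0.93) in HT. The direction of so small a change was not fixed: in HT it was 0.0067 without HT vehicle male 4 and 0.017 with 2 covariates per library, how expression depends on transcript length and on GC content (length and GC slopes). These intervals leave out the point estimates for Rps10, Rps18 and Rps24 in the same libraries. Rps15a was picked as the gene nearest to 0 and the others for a small p, and no difference between genes was tested.

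**Figure D3:**
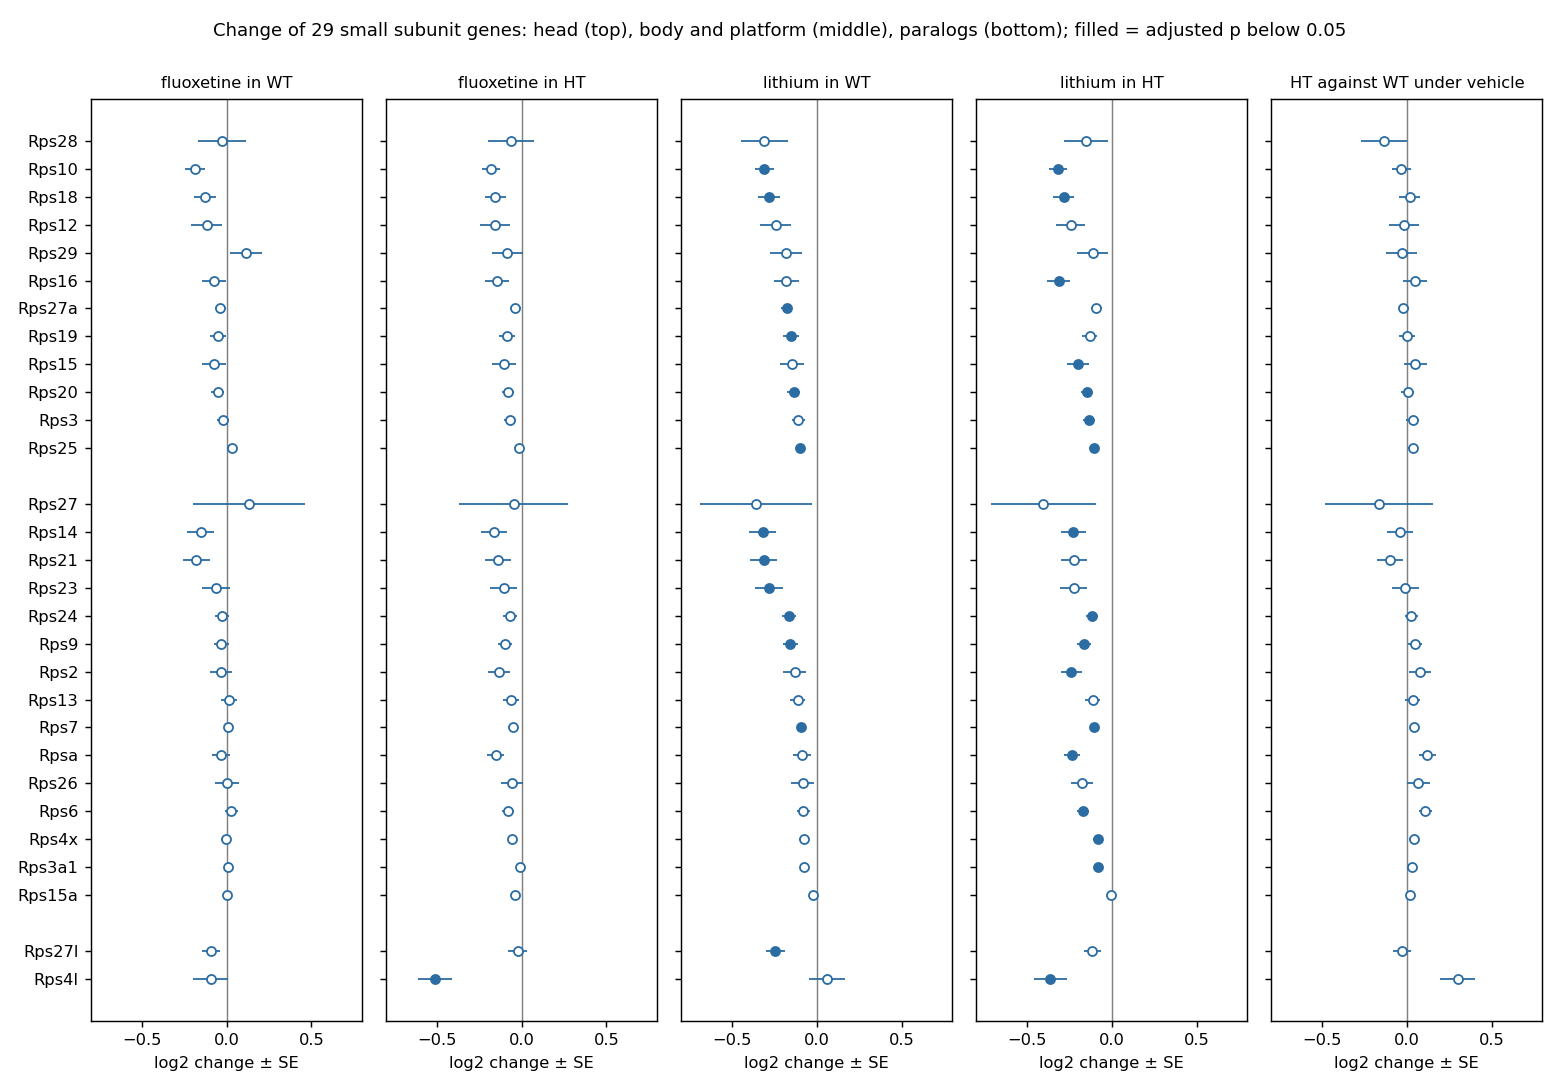
Log2 change with its SE for 29 of the 33 genes in 5 comparisons, grouped by place in the subunit; filled points have an adjusted p below 0.05. The filled points of the 2 lithium panels all lie left of 0, and the fluoxetine panels hold 1 filled point, Rps4l in HT.

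The family holds 2 paralogs, Rps27l and Rps4l. Rps27l, a paralog of Rps27, ran from 113 over 138 to 150 under WT vehicle and from 95.7 over 116 to 138 under WT lithium. It fell by 0.24 ± 0.055 in WT with adjusted p = 0.0067, in 9 of 9 libraries. In HT its change was -0.11 ± 0.052 with adjusted p = 0.17. Its parent Rps27 had changes of -0.36 ± 0.33 in WT with adjusted p = 0.56 and -0.40 ± 0.31 in HT with adjusted p = 0.46. The sum of Rps27 and Rps27rt was 1176 ± 89.2 under vehicle and 1026 ± 76.0 under lithium in WT (SD, n = 9 each), and 1170 ± 107 under vehicle and 1056 ± 71.1 under lithium in HT (SD, n = 10 each). Rps27rt alone fell by 0.19 ± 0.056 in WT with adjusted p = 0.037, and its change in HT was -0.11 ± 0.053 with adjusted p = 0.18.

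Rps4l lies on chromosome 6 from 148354656 to 148355598 in GRCm38, on the plus strand, and GENCODE vM21 annotates it as a transcribed processed pseudogene. Only 0.876% of its 31-base words occur in its parent Rps4x, and 25.6% in a further copy, Rps4l-ps. In HT vehicle libraries Rps4l ran from 412 over 474 to 587. It ran from 253 over 321 to 434 in HT fluoxetine and from 268 over 353 to 466 in HT lithium libraries. In WT it ran from 326 over 403 to 431 under vehicle, from 216 over 405 to 466 under fluoxetine and from 327 over 407 to 448 under lithium. The HT vehicle group was thus the highest of the 6 groups, and its mean of 475 ± 56.4 (SD, n = 10) compared with 386 ± 42.9 (SD, n = 9) in WT vehicle.

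Fluoxetine lowered Rps4l in HT by 0.51 ± 0.101 with adjusted p = 0.015, in 9 of 9 libraries. Lithium lowered it in HT by 0.36 ± 0.098 with adjusted p = 0.014, in 9 of 10 libraries. These comparisons share their HT vehicle libraries. In WT the changes were -0.09 ± 0.104 under fluoxetine, which turned to 0.10 without the 17 libraries rich in olfactory or striatal transcripts, and 0.06 ± 0.104 under lithium, the latter with adjusted p = 0.79. The interaction of genotype with either drug was -0.42, with adjusted p = 0.81 for fluoxetine and 0.28 for lithium, and HT against WT under vehicle gave 0.30 ± 0.101 with adjusted p = 0.30. A difference of the drug response between genotypes was therefore not shown. The fluoxetine call was lost when HT fluoxetine female 1, HT fluoxetine female 2, HT fluoxetine male 5 or HT vehicle female 5 was left out, with adjusted p up to 0.073. Rps4x, the X-linked parent, fell by 0.08 ± 0.025 under lithium in HT with adjusted p = 0.028, and its WT change was -0.08 ± 0.027 with adjusted p = 0.069. The HT call of Rps4x was lost with 6 of 56 libraries left out in turn and in 4 of 12 other settings.

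**Figure D4:**
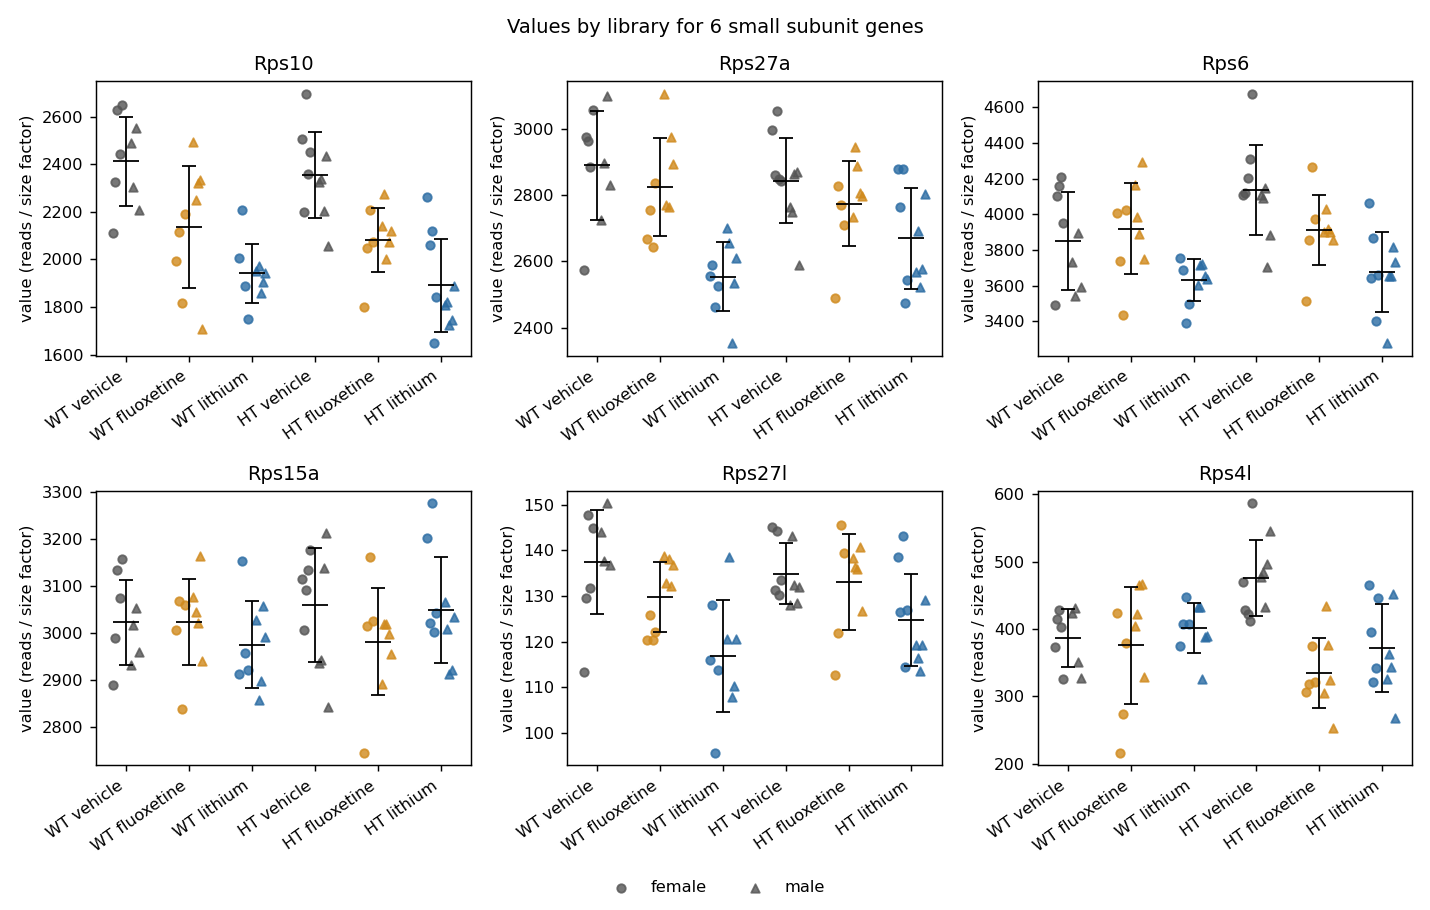
Values of 6 small subunit genes in each library by genotype and treatment; circles are females, triangles males, and the black mark is the mean with its SD. Rps10 is lower in the lithium groups of both genotypes, Rps15a is level across groups, and Rps4l is highest in HT vehicle with a mean of 475.

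Apart from Rps4l in HT, no member was called under fluoxetine. In WT none of the 33 was called, where 0.146% of all genes were, and edgeR and DESeq2 called none either. At an unadjusted p below 0.05 there were 3 members, where 10.9% of all genes passed. The median change was -0.032, with 22 of 33 changes negative. Without the 17 libraries rich in olfactory or striatal transcripts it was -0.0014, with 17 of 33 negative, and with a single library left out it ran from -0.058 to -0.012. Rps10 had the smallest p, with a change of -0.19 ± 0.057 and adjusted p = 0.15. In HT 1 member was called, where 0.045% of all genes were, and 14 members had an unadjusted p below 0.05, where 8.56% of all genes did. The median was -0.085 and all 33 changes were negative. With length and GC slopes as covariates the median was -0.036 with 26 of 33 negative, and without the 17 libraries it was -0.067 with 29 of 33 negative. The fluoxetine comparisons share the vehicle libraries with the lithium comparisons of the same genotype.

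Between the genotypes, in HT against WT under vehicle, 0 members were called in limma, edgeR and DESeq2, where 0.00562% of all genes were in limma, and 3 members had an unadjusted p below 0.05, where 9.93% of all genes did. The median change was 0.027 and 23 changes were positive. Its direction turned with length and GC slopes as covariates, to -0.015 with 19 of 33 negative, and with a single library left out it ran from 0.0086 to 0.042. Rps6 had the smallest p, with a change of 0.11 ± 0.037 and adjusted p = 0.30. No member was called in the genotype by fluoxetine interaction either (0% of all genes). An unadjusted p below 0.05 was reached by 3 members in the fluoxetine interaction, where 5.44% of all genes passed, and by 2 in the lithium interaction, where 10.9% passed. The count was 0 in edgeR and DESeq2 for both interactions.

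Split by sex, the median change under lithium was -0.19 in WT females, -0.12 in WT males, -0.18 in HT females and -0.15 in HT males. Under fluoxetine it was -0.09 in WT females, 0.05 in WT males, -0.17 in HT females and -0.01 in HT males. Median changes of oligodendrocyte and striatal markers under fluoxetine were also lower in females than in males. Of 12 oligodendrocyte genes 11 had negative changes in WT females (median -0.28) and 1 in WT males (median 0.25), against 11 in HT females (median -0.19) and 2 in HT males (median 0.03). The oligodendrocyte sum ran from 107029 to 222605 in WT vehicle and 114357 to 163625 in WT fluoxetine females, and from 111203 to 148880 and 140368 to 225074 in the males. In HT it ran from 113999 to 254919 and 113108 to 192246 in females, and from 117718 to 205631 and 112224 to 197726 in males. All 18 striatal genes had negative changes in WT females (median -0.33) and none in WT males (median 0.37), against 16 in HT females (median -0.27) and 6 in HT males (median 0.09). The striatal sum ran from 17674 to 28448 in WT vehicle and 17535 to 19762 in WT fluoxetine females, and from 17908 to 18447 and 16913 to 31728 in the males. In HT it ran from 17749 to 54029 and 18402 to 24094 in females, and from 18251 to 41972 and 18164 to 48185 in males. For the difference between the sexes no gene of either list was called, and 8 of the 12 oligodendrocyte genes had an unadjusted p below 0.05 in WT and 0 in HT. No oligodendrocyte gene was at 0 in any library and no striatal gene was at 0 in all. Under lithium the medians of these lists were also lower in females than in males. For oligodendrocyte genes they were -0.22 and 0.27 in WT, and -0.16 and 0.05 in HT. For striatal genes they were -0.21 and 0.69, and -0.34 and 0.18. The median male minus female effect of lithium on the 33 genes was 0.069 in WT and 0.0038 in HT. Olfactory bulb genes under fluoxetine had medians of -0.0007 and 0.31 in WT, and -0.096 and -0.28 in HT. The part of these cells and tissues in the difference between the sexes was not tested. For fluoxetine the median male minus female effect on the 33 genes was 0.12 in WT and 0.15 in HT. It was 0.11 and 0.13 without the 17 libraries, and 0.11 and 0.026 with length and GC slopes. No member was called in the test of any difference between the sexes in drug effect, in limma, edgeR or DESeq2, and 0% of all genes were in limma. Under fluoxetine 5 members in WT and 6 in HT had an unadjusted p below 0.05 for this difference, where 4.79% and 5.97% of all genes did. Under lithium 0 did in either genotype, where 6.59% and 2.71% of all genes did. Within a sex, Rps27a and Rps10 were called lower under lithium in WT females, where 0.799% of all genes were called. Rps6, Rps10 and Rps2 were called lower in HT females, where 0.99% of all genes were called, and Rps10 in HT males, where 0.546% were. No member was called in WT males under lithium, where 0.208% of all genes were, or within a sex under fluoxetine, where 0.0169% were in WT females and 0% in the other groups.

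Within groups, the members moved together from library to library. A single component held 60.2% of their standardized variance within groups, and all 33 genes had the same sign on it. The counts of members called or changed in the same direction, under lithium or fluoxetine, are therefore not counts of separate observations. The median SD of a member within groups was 0.115 on the log2 scale, against 0.134 over all tested genes. It was smallest for Rps3a1 at 0.046 and largest for Rps27 at 0.72.

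Transcripts of this family are short, and the slope of expression on transcript length, estimated in each library without ribosomal protein genes, moved with the treatment. Its mean was -0.0039 in WT vehicle and 0.017 in WT lithium, and -0.013 in HT vehicle and 0.012 in HT lithium libraries. The unit is log2 per SD of log2 transcript length over genes, with GC content in the same fit. With the slopes on length and GC content as covariates, 5 members were called under lithium in WT and 5 in HT. They were Rps10, Rps14, Rps18, Rps21 and Rps27a in WT and Rps6, Rps10, Rps16, Rps18 and Rpsa in HT. The medians over all members were -0.10 and -0.08. Over all genes 2.7% and 2.24% were called in this setting, also fewer than without covariates. With the length slope alone, a setting chosen after the data were seen, 4 were called in WT (Rps10, Rps18, Rps27a and Rps27l) and 1 in HT (Rps10), where 5.44% and 1.86% of all genes were. In this setting Rps10 fell by 0.22 in WT with adjusted p = 0.0063 and by 0.21 in HT with adjusted p = 0.017. With both slopes Rps10 and Rps21 were called lower under fluoxetine in WT, at changes of -0.20 (adjusted p = 0.017) and -0.21 (adjusted p = 0.035), where 0.754% of all genes were called, and Rps4l was no longer called in HT. Whether the slope is a cause or a part of the lithium result was not tested.

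Other short and abundant transcripts give the same measure outside the family. A set of 185 genes with a longest transcript under 1000 bases and a mean value of at least 500, ribosomal proteins left out, was chosen after the data were seen. Under lithium in WT 11 of the 185 were called lower and 1 higher, with a median of -0.04. In HT 44 were called lower and none higher, with a median of -0.10. Over all tested genes 1.88% were called lower and 3.84% higher in WT, and 4.13% lower and 4.64% higher in HT.

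Without the 17 libraries rich in olfactory bulb or striatal transcripts, 2 members were called under lithium in WT (Rps10 and Rps27a) and 7 in HT (Rps4l, Rps6, Rps7, Rps9, Rps10, Rps18 and Rpsa). Over all genes 1.35% were called in WT and 5.53% in HT, also fewer than in all libraries. The medians were -0.13 and -0.16, and the setting also leaves fewer libraries in each group. Rps10 fell by 0.30 in WT with adjusted p = 0.015 and by 0.31 in HT with adjusted p = 0.0085. With the olfactory and striatal scores as covariates in all libraries, 15 members were called in WT and 23 in HT, where 5.84% and 11.5% of all genes were. The WT count also fell to 8 without WT vehicle female 3, WT vehicle male 3 or WT lithium female 4, and to 9 without WT lithium female 3 or WT lithium male 3, where 3.36% to 4.6% of all genes were called.

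**Figure D5:**
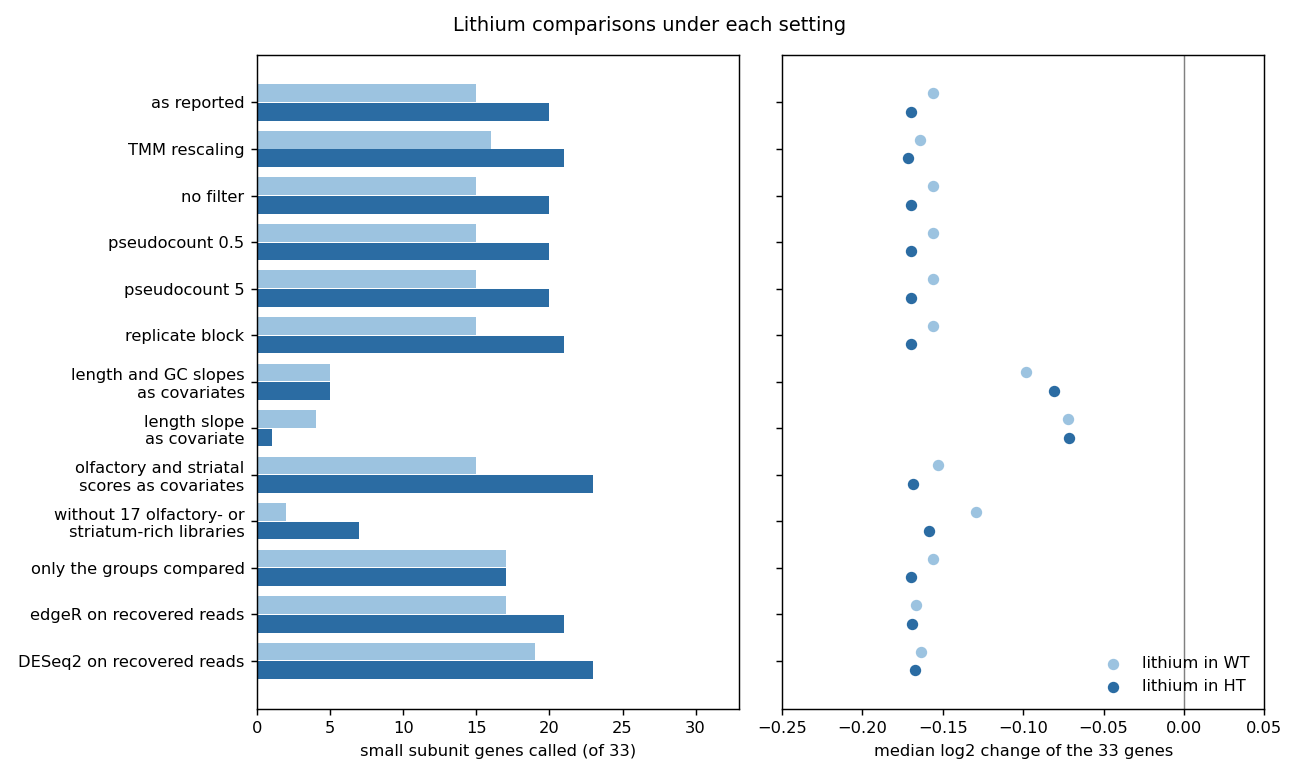
Small subunit genes called (left, bars from 0) and their median log2 change (right) in the lithium comparisons under each setting. The counts of 15 in WT and 20 in HT drop to 5 and 5 with length and GC slopes and to 2 and 7 without 17 libraries, while every median stays below 0.

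Markers of other cells were read beside this result. All 12 microglial genes had negative changes under lithium in both genotypes, and those called lower included Siglech in WT and Fcrls and P2ry12 in HT. Their summed value ranged from 11921 to 14367 in WT vehicle, 10074 to 13959 in WT lithium, 11687 to 15139 in HT vehicle and 11118 to 13400 in HT lithium libraries. Of the 12 endothelial and pericyte genes, Cldn5, a tight junction protein, was called lower in both genotypes. In HT Itm2a and Pecam1 were also called lower and Flt1 was called higher. The endothelial sum ranged from 14968 to 18651 in WT vehicle, 14564 to 17585 in WT lithium, 13737 to 18582 in HT vehicle and 12675 to 15901 in HT lithium libraries. Of 12 neuronal genes Snap25 was called higher in WT, and no astrocyte, oligodendrocyte, choroid plexus, olfactory or striatal gene was called in either lithium comparison. The part of cell composition in the result was not tested, and in bulk tissue fewer cells of a type cannot be told apart from less RNA per cell.

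Fau and Rack1 are close to the family but fall outside the symbol rule. Fau, the precursor of the body protein eS30, fell by 0.16 ± 0.046 under lithium in WT with adjusted p = 0.029 and by 0.20 ± 0.043 in HT with adjusted p = 0.0022. Rack1, a scaffold on the head, fell by 0.17 ± 0.046 in HT with adjusted p = 0.016, and its WT change was -0.10 ± 0.049 with adjusted p = 0.20.

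Genes of large subunit proteins were lower as well: 16 of 49 were called lower under lithium in WT with a median of -0.11, and 23 of 49 in HT with a median of -0.13. Over all genes 1.88% were called lower in WT and 4.13% in HT. Rpl9, Rpl17 and Rpl13a had the smallest p in both genotypes, with changes from -0.20 to -0.32. The small subunit of the mitochondrial ribosome, made from other genes, had 1 of 29 called higher in WT (Mrps2, 0.17 ± 0.038) and none called in HT. Over all genes 3.84% were called higher in WT, and 8.77% were called in HT.

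The other TOP messenger RNAs, 17 genes mostly of translation factors, had none called under lithium in WT, with a median of 0.0036. In HT 7 of 17 were called lower with a median of -0.07, among them Eif3h, Eef1b2 and Eef1g at -0.10 to -0.11. Under fluoxetine in WT Npm1, a nucleolar chaperone, was called higher by 0.13 ± 0.029 with adjusted p = 0.048. Of 48 factors that assemble and export the 40S subunit, none was called under lithium in WT. In HT Rrp36 and Tsr2 were called lower, and Bms1 (0.16 ± 0.034), Utp20 (0.15 ± 0.034), Utp4, Utp15 and Utp14a were called higher, most of them parts of the machinery that processes 40S precursors in the nucleolus. Of the 48 changes in HT 24 were negative and 24 positive, with a median of -0.0011. Under lithium 5.71% of all genes were called in WT, and 4.13% were called lower and 4.64% higher in HT.

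Of 17 S6 kinases and regulators of TOP messenger RNAs, Tsc2, an inhibitor of mTORC1, rose by 0.09 ± 0.022 under lithium in WT with adjusted p = 0.014 and by 0.11 ± 0.020 in HT with adjusted p = 0.00061. In HT 4 of the 17 were called higher, where 4.64% of all genes were, including Tsc1, the partner of Tsc2, at 0.13 ± 0.035, Rps6kb2, an S6 kinase, at 0.17 ± 0.053, and Mtor, the kinase of the mTORC1 complex. None of this list was called lower in either lithium comparison.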

How the data were processed

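Prefrontal cortex RNA of 56 mice was sequenced from TruSeq Stranded mRNA libraries, per the labels' protocols. The submitters' processing notes name Salmon (version 0.11.2), DESeq2 (1.19.11), R (3.6.0) and the build GRCm38, but no role for any. The deposited values are a signal: the authors divided read counts by 1 size factor per library (0.818 to 1.23). Whole reads came back for 100% of values at a tolerance of 0.01 reads. The step was too near 1 to test in replicate 5 of HT lithium females and replicates 2 and 5 of HT vehicle males.

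Symbols were matched to 18077 of 18088 gene IDs, with GENCODE vM21 coordinates. Tests covered the 17778 genes with a value of at least 10 in at least 4 libraries, leaving out 310. The limma package 3.58.1 (R 4.3.3, trend and robust settings) modelled log2(value + 1) by 12 group means. Each effect is the mean of its female and male estimates, p-values were Benjamini-Hochberg adjusted over all tested genes within a comparison, and an adjusted p below 0.05 was a call. Changes are on the log2(value + 1) scale, and the fit was tested on simulated data.

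Members and lists were chosen with earlier results of these data known. Named with full statistics are up to 5 called members with the smallest p per comparison and direction, or the smallest p where none was called, the paralogs and their parents, and up to 3 called genes of each other list. Rps12, Rps15a, Rps21, Rps27rt, genes that complete a small count, and the set of other short transcripts were added after values were seen. Single results of 4 members and of some other genes are not reported here, and these members enter counts, sums and medians but no plot of single genes. Alternatives were TMM rescaling, edgeR 4.0.16 and DESeq2 1.42.0 on recovered reads, no filter, pseudocounts of 0.5 and 5, only the groups compared, a replicate block, covariates, and leaving out libraries.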

Additional observations from a re-analysis of the deposited data

Results flagged for a closer look

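The summed value and 11 genes named above were searched, in each of the 12 groups of 4 or 5 libraries, for a library that stood apart from the rest of its group. Of 144 such groups 11 were marked, and chance alone marks about 1 in 20. For the summed value, HT lithium male 3 was low at 79720, where the others of its group ran from 87012 to 89860, and HT vehicle male 5 was low at 88160, with the nearest other at 97743.

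In single genes, WT vehicle female 1 was low for Rps16 (1324, nearest 1621) and for Rpsa (7608, nearest 9372). WT lithium female 2 was high for Rps18 (2774, nearest 2269), WT lithium male 2 was high for Rpsa (8626, nearest 8106), HT vehicle female 3 was high for Rps24 (5054, nearest 4760), and HT vehicle male 2 was high for Rps27l (143.2, nearest 132.3). Rps27 was high in HT vehicle male 1 (289.2, nearest 53.5), HT lithium male 4 (128.4, nearest 36.7) and WT fluoxetine male 5 (102.7, nearest 54.7). Rps27 shares nearly all of its sequence with Rps27rt. No member was called in a test of a difference between genotypes or sexes in drug effect.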

How the results depend on the processing

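TMM rescaling, no filter, pseudocounts of 0.5 and 5, only the groups compared, the olfactory and striatal scores as covariates, edgeR and DESeq2 moved no count of members called by more than 1.5 times. Under lithium these settings gave 15 to 19 in WT and 17 to 23 in HT, where 818 to 1152 and 1170 to 2048 of all genes were called. With length and GC slopes the counts were 2 for fluoxetine in WT, 0 for fluoxetine in HT, 5 for lithium in WT and 5 for lithium in HT. In the same order 134, 4, 480 and 399 of all genes were called. With the length slope alone the counts of members were 2, 0, 4 and 1, where 80, 5, 968 and 331 of all genes were called. Without the 17 libraries rich in olfactory or striatal transcripts they were 0 for fluoxetine in HT, 2 for lithium in WT and 7 for lithium in HT. Here 4, 240 and 983 of all genes were called. The cause of these lower counts was not tested, and the last setting also holds fewer libraries. Leaving out each library in turn gave 8 to 19 members for lithium in WT and 16 to 27 for lithium in HT. Over all genes the count then also moved, from 571 to 1226 in WT and from 985 to 1815 in HT. For fluoxetine in HT it gave 0 to 1 members, where 4 to 13 of all genes were called. The count of members was 0 for fluoxetine in WT, genotype, both interactions and the sex differences. These were also 0 in all other settings except fluoxetine in WT as given. Of the changes of single members given above, those of Rps15a under lithium and of Rps4l under fluoxetine in WT turned direction, and none of them was called. Rps15a under lithium was 0.0174 in HT with length and GC slopes, 0.0028 in WT and 0.025 in HT with the length slope alone, and -0.0153 to 0.0067 in HT with each library left out. Rps4l under fluoxetine in WT was 0.0963 without the 17 libraries. Replicate numbers were taken from the sample titles. In WT fluoxetine and WT lithium females some of them differ from the numbers in the library names. Of 35 pairs with the same title number 1 had a correlation of deviations over 0.1 (-0.173 to 0.132), and 9 libraries were closest to their own number. Whether libraries are paired by the numbers in their names was not tested. With a block on the title numbers the counts of members were 15 for lithium in WT, 21 for lithium in HT and 1 for fluoxetine in HT. Here 1055, 1588 and 8 of all genes were called. The count of members was 0 elsewhere. Rps10 was called under lithium in both genotypes, and Rps27a in WT, in all 12 other settings and with each of the 56 libraries left out. At a depth of 24.3 M reads or more the members had at least 16 reads each. The lowest counts were those of Rps27, with 16 to 253 reads, which also depend on how reads are divided between Rps27 and Rps27rt.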
